A study of Mus musculus with 9 samples.

Results

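The genes described here belong by name to the extracellular matrix, to the proteins that process it, and to contractile fibres. They were chosen by name: collagens, laminins, fibulins, fibrillins, nidogens, lysyl oxidases, latent TGF-beta-binding proteins, thrombospondins, matrix metalloproteinases (MMPs), ADAMTS proteinases, tissue inhibitors of metalloproteinases (TIMPs), IGF-binding proteins, and single genes such as Fn1, Sparc, Dcn, Edil3, Des and Myl9. Mmp8 was left out. Of the 2810 genes listed in at least 1 of the 3 deposited tables, 48 carried such a name, while 165 annotated protein-coding genes of the mouse do. The tables list only genes that had passed the authors' screen on the same libraries, so a member outside a table has no value for that comparison.

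RNA was sequenced from endothelial progenitor cells (EPCs) of C57BL/6J mice aged 8 weeks, in 3 libraries each from males (M-EPCs), females (F-EPCs) and ovariectomized females (OVX-EPCs), whose ovaries had been removed at around 35 days of age. In all groups, bone marrow was depleted of lineage-positive cells, selected magnetically for Sca-1 and CD31, and grown on gelatin-coated plates in EGM-2 endothelial medium with low phenol red and no added estrogen. A library label also calls the cells freshly isolated, and the number of animals behind a library is not stated, so p-values measure only the spread between these libraries, which may be technical. The cells were a magnetically enriched culture, not single cells, and fewer cells of a type cannot be told apart from less RNA per cell.

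Collagens of the fibrillar type form the cables of connective tissue, and laminins, nidogen and perlecan form the sheet of basement membrane on which endothelium rests. Fibronectin and the matricellular proteins tie cells to that matrix, MMPs and ADAMTS proteinases cut it, and TIMPs block the cutting. In bone marrow, mesenchymal stromal cells, osteoblasts, pericytes and endothelial cells make most of this matrix, whereas macrophages and megakaryocytes make some of its proteinases and thrombospondins.

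Promoter sequence is given for the members that had no read in all 3 libraries of a group or were listed in all 3 tables, as far as RefSeq holds one, because these were read in some groups alone or differed in every comparison. Each run lies before the gene's start on GRCm38.p6 and is read 5′ to 3′ on the gene's own strand. Capitals mark the GC box GGGCGG, the M-CAT element CATTCC and the CArG box, which is CC, then 6 bases that are A or T, then GG, each searched on both strands. The runs of Igfbp5 and Myl9 hold 231 and 206 bases because GENCODE starts these genes further upstream, and the others hold 250.
Des, chr1:75360042-75360291, plus strand: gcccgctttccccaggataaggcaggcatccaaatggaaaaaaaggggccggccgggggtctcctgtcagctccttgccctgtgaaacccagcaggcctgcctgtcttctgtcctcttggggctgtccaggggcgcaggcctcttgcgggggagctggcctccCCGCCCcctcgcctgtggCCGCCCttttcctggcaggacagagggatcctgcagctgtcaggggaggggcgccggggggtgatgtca
Myl9, chr2:156775214-156775419, plus strand: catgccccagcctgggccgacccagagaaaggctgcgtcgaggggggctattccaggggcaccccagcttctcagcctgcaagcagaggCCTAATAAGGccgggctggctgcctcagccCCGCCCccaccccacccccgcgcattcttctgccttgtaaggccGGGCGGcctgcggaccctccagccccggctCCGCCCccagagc
Igfbp2, chr1:72824230-72824479, plus strand: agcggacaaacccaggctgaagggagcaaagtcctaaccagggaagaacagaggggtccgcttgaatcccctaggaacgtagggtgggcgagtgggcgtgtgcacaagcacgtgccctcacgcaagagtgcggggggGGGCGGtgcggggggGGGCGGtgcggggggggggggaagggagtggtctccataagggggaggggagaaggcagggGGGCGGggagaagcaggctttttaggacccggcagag
Igfbp5, chr1:72874885-72875115, minus strand: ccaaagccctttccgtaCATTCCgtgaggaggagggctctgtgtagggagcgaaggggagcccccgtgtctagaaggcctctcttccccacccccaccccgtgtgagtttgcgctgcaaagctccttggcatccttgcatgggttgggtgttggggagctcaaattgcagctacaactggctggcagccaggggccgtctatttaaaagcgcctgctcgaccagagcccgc
Timp1, chrX:20869916-20870165, plus strand: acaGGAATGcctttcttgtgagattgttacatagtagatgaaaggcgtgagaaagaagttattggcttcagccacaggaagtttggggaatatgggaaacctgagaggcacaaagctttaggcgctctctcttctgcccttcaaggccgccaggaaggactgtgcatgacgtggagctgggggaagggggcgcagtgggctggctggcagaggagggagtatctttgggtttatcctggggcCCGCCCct

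RefSeq held a promoter for 34 of the 48 members, and motifs were searched in the 250 bases before the start. The CArG box, the site that serum response factor binds in smooth muscle promoters, was found in 1 member, Myl9 (2.9% of 34). It was found in 2.12% of the 1695 listed genes and in 1.62% of all 27025 genes with a promoter. The CArG box of Myl9 spans positions -161 to -152 counted from the RefSeq start. The GC box was found in 24 members (70.6%), against 50.27% of the 1695 listed genes and 35.4% of all genes, and the members' promoters were richer in G and C, with a median of 62.0% against 56.4% for the listed genes. The next motifs are set against the listed genes first and all genes second. The M-CAT element was found in 5 members (14.7% against 12.92% and 14.4%) and the AP-1 site TGANTCA in 3 (8.8% against 8.44% and 7.82%). The TATA box TATAAA was found in 3 (8.8% against 12.04% and 14.3%) and the E-box CANNTG in 25 (73.5% against 66.96% and 69.3%). The palindromic estrogen response element was found in 0 members, in 0 of the 1695 listed genes and in 0.067% of all genes. A match is a description of letters and not of a bound site.

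Igfbp2 and Igfbp5 are neighbours. Igfbp2 lies at chr1:72824503-72852474 on the plus strand and Igfbp5 at chr1:72857932-72874884 on the minus strand (GENCODE, GRCm38), with 5457 bases between them. Dcn and Lum are likewise neighbours on chromosome 10, with 46984 bases between them. The spans of 6 members overlap another protein-coding gene, and 1 of these, Adamtsl1 with Sh3gl2, overlaps on the same strand. Timp1 and Timp3 lie within Syn1 and Syn3 on the opposite strand, and Lamb3, Mmp12 and Mmp28 also overlap a gene on the opposite strand. The sources used here do not state whether strand was used in counting, so reads of these 6 members could in part belong to their partners.

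A deposited value is a normalized count: the authors scaled the reads of each library by 1 factor, chosen anew in each comparison. Whole reads could be recovered for all values, and between 454298 and 2070442 reads per library fell on the genes of a table. A library with 3 reads or fewer is called at the floor here, which covers counting error only. Pecam1, the gene of CD31, had at least 159 reads in every library. Size factors recomputed on the listed genes by TMM, RLE or DESeq2 moved the median log2 fold change of all listed genes between F-EPCs and OVX-EPCs from -1.31 to -0.18, and raised the part of the calls with F-EPCs on the higher side from 31.4% to between 63.0% and 67.1%. For M-EPCs against OVX-EPCs the median moved from -1.26 to between -1.06 and -0.64 and the part with M-EPCs on the higher side from 41.3% to between 44.8% and 52.6%, and for M-EPCs against F-EPCs the median moved from -0.99 to between -1.35 and -0.91 and that part from 49.5% to between 37.2% and 52.9%. The fold changes below use the authors' factors. The members' median less that of all listed genes between F-EPCs and OVX-EPCs was -1.15 with these factors and with TMM, RLE and DESeq2. New size factors shift all genes of a comparison nearly alike, so this difference could hardly change and is no check of the scaling.

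Most members listed in a comparison with OVX-EPCs stood higher in OVX-EPCs than in the other group. For F-EPCs against OVX-EPCs 35 members were listed, and limma with Benjamini-Hochberg adjustment over all listed genes called 35 of them, against 98.2% of the 811 genes of that table. Of the 35, 33 were lower in F-EPCs, where 67.3% of the table was called lower, and 2, Lamb3 and Mmp28, were higher, where 30.8% of the table was called higher. For M-EPCs against OVX-EPCs all 18 listed members were called (98.8% of the 1317 genes) and all 18 were lower in M-EPCs (58.0% of the table). Between M-EPCs and F-EPCs all 30 listed members were called (97.6% of the 2093 genes), 19 higher in M-EPCs (48.4% of the table) and 11 lower (49.3%). A call needed an adjusted p under 0.05 and a log2 fold change of 1 or more in either direction. Because the tables were screened on the same libraries nearly every listed gene passes, so a share of members called near these percentages says nothing about the members. All 48 members passed the filter on a mean of at least 1 normalized count.

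**Figure D1:**
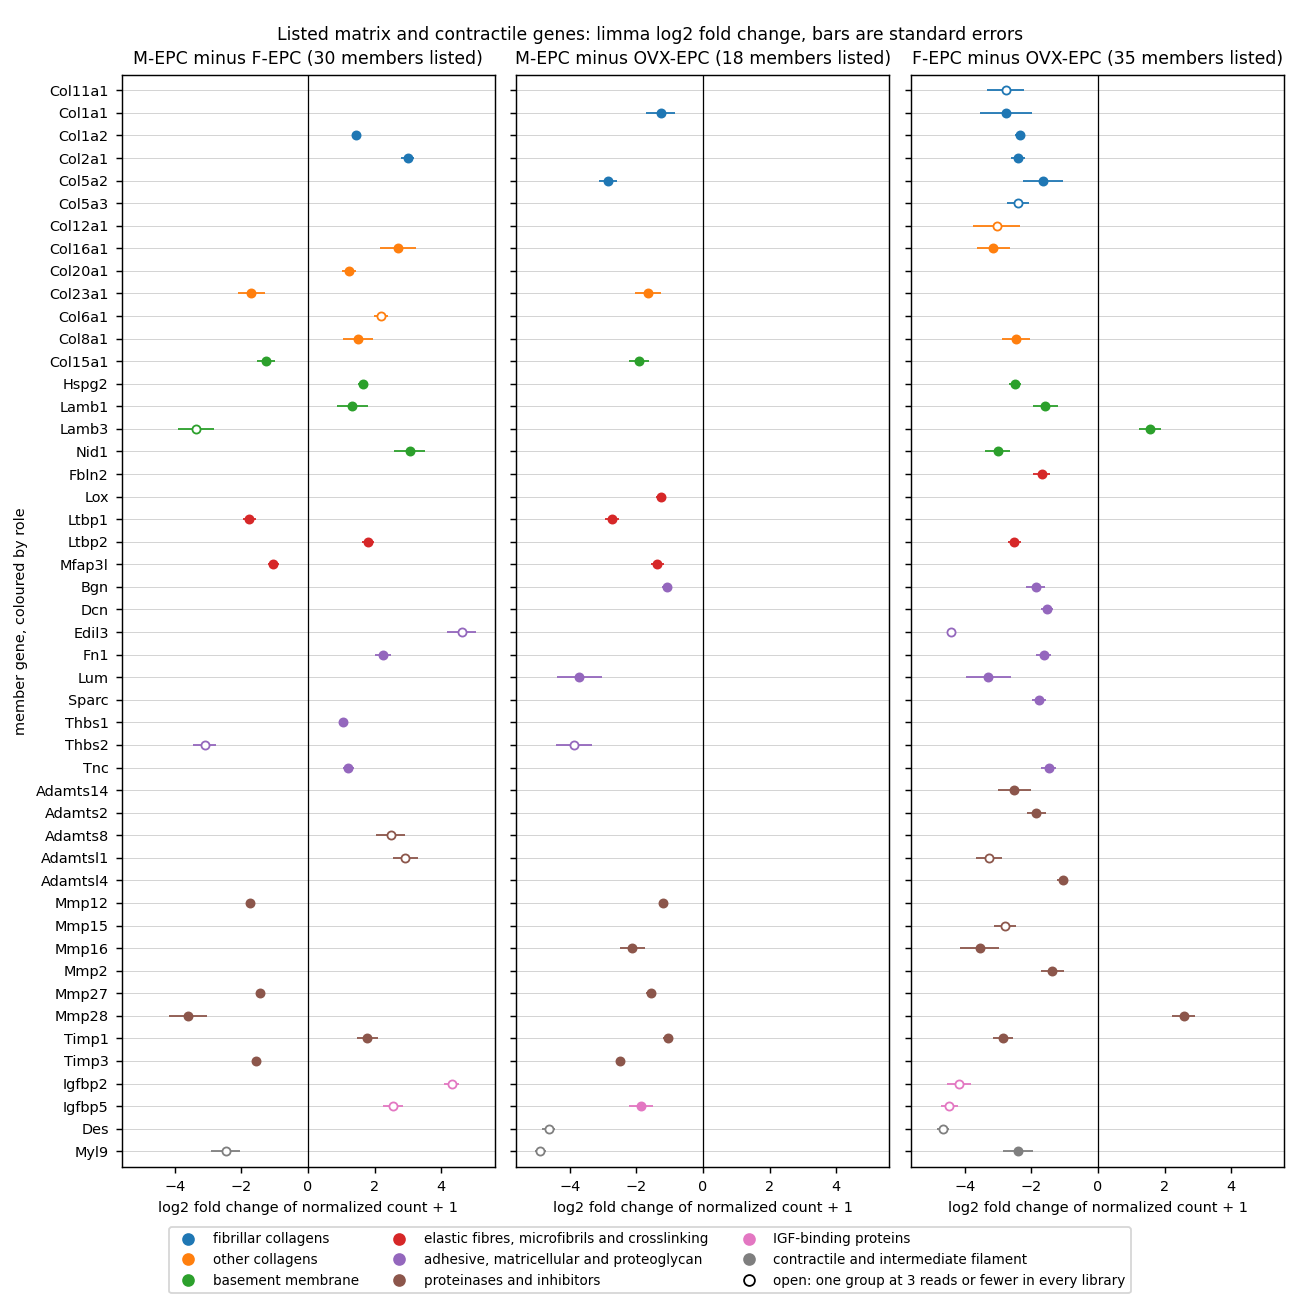
Limma log2 fold change of normalized counts plus 1 (horizontal, with standard errors) for each of the 48 members (vertical) in the 3 comparisons, coloured by role. In the right panel 33 of 35 members lie left of 0, in the middle panel 18 of 18, and in the left panel 11 of 30. Open points have a group at 3 reads or fewer in every library, and their fold depends on the added count of 1.

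The median log2 fold change of the members was -2.47 between F-EPCs and OVX-EPCs (all listed genes, -1.31), -1.89 between M-EPCs and OVX-EPCs (all listed genes, -1.26) and 1.39 between M-EPCs and F-EPCs. Placing members with a group at 0 reads at their lower bound left the first 2 medians at -2.47 and -1.89 and moved the last to 1.22. The median of all listed genes for M-EPCs against F-EPCs was -0.99, and 0.99 over the 1774 genes with a mean of at least 20, so it is no stable reference there. The 6 libraries of a comparison separated completely by group for 35 of 35 members between F-EPCs and OVX-EPCs (98.9% of the table), 17 of 18 between M-EPCs and OVX-EPCs (99.2%) and 30 of 30 between M-EPCs and F-EPCs (98.3%). In an exact two-sided permutation test of 3 libraries against 3, complete separation gives p = 0.10, the smallest possible, so single members cannot pass 0.05 by that test. Col1a1 between M-EPCs and OVX-EPCs was the exception, with an exact permutation p of 0.20. Summed over the 35 members, F-EPC libraries held between 1068 and 1226 reads and OVX-EPC libraries between 4435 and 4646.

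For 32 members the tables together give a value in all 9 libraries, which were placed on a common scale by fitting 1 size factor per library to the authors' factors. The largest residual of that fit was 0.0989%. With the authors' factors, the highest mean was in OVX-EPCs for 23 of the 32 members (71.9%), against 43.4% of all 1288 genes with 9 values. The lowest mean was in F-EPCs for 18 (56.2% against 37.7%), in M-EPCs for 14 (43.8% against 47.7%) and in OVX-EPCs for 0 (14.5% of all genes). Des, at 0 in both M-EPCs and F-EPCs, was counted under M-EPCs. With no overlap between neighbouring groups, 7 members ran F-EPC, M-EPC, OVX-EPC from lowest to highest (Bgn, Col1a2, Col8a1, Hspg2, Igfbp5, Ltbp2 and Timp1), which 3.7% of all genes did. Another 6 ran M-EPC, F-EPC, OVX-EPC (Col15a1, Ltbp1, Mfap3l, Mmp27, Myl9 and Timp3), which 14.6% of all genes did. All but Myl9 of these were unlisted between F-EPCs and OVX-EPCs, with log2 ratios of the means from -0.96 (Ltbp1) to -0.12 (Mmp27). Those ratios are smaller in size than the shift of that comparison's median, from -1.31 to -0.18, with recomputed size factors. Their order of F-EPCs and OVX-EPCs thus rests on the authors' factors, and recomputed factors were not applied to these genes. Thbs2, also unlisted there and highest in OVX-EPCs, had a log2 ratio of -0.92 with overlap. For it and these genes, a place among the 23 rests on the authors' factors too. The comparisons share libraries, so these orders are not independent of the lists above.

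**Figure D2:**
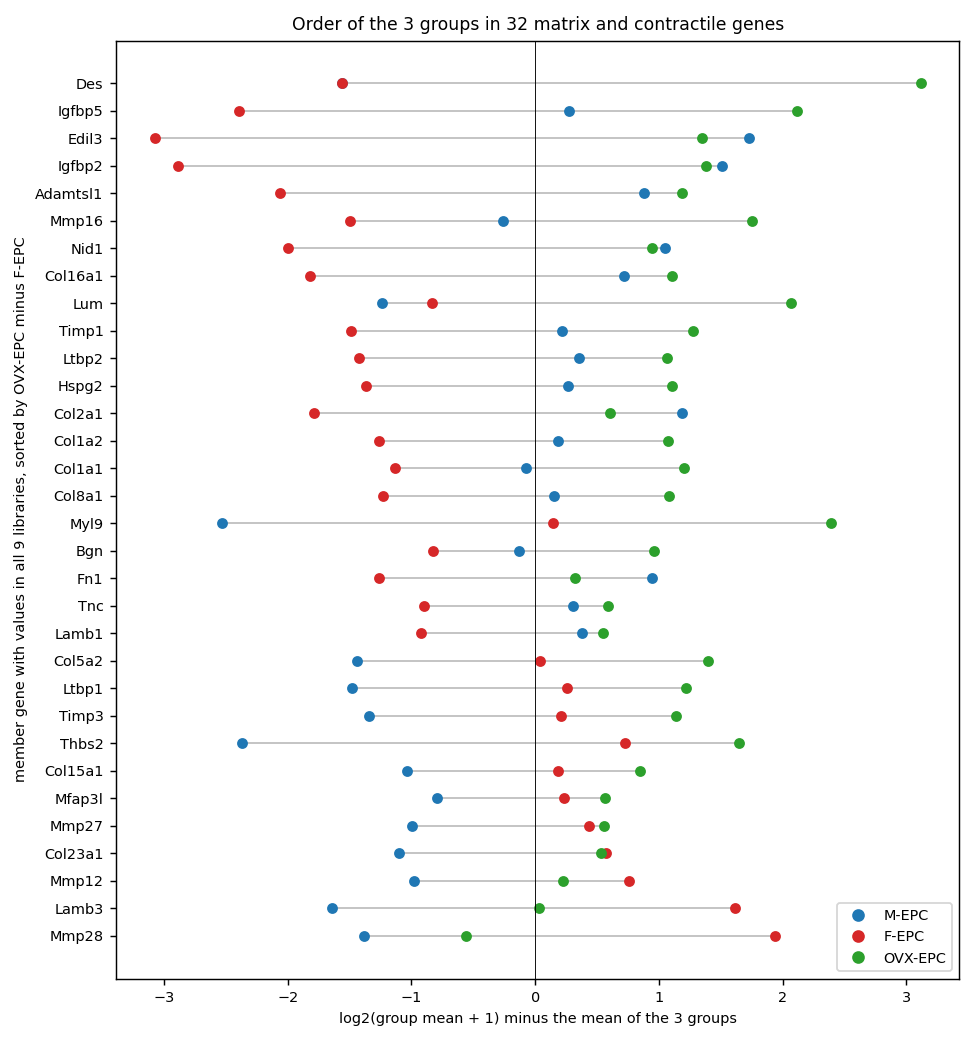
For the 32 members with values in all 9 libraries, log2 of each group's mean normalized count plus 1, less the mean of the 3 groups (horizontal), with members sorted from the largest to the smallest OVX-EPC minus F-EPC difference (top to bottom). With the authors' factors OVX-EPCs stand highest in 23 members, and F-EPCs stand highest in 4 at the bottom of the plot. In Des the M-EPC point lies under the F-EPC point because both are at 0 reads.

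The 2 listed contractile and intermediate filament genes had their highest counts in OVX-EPCs. These were Des and Myl9, of the 8 genes of this kind that the rule names. Smooth muscle actin and its partners (Acta2, Tagln, Cnn1, Myh11, Actg2 and Tpm2) were listed in no comparison and so have no value here. Des encodes desmin, the intermediate filament of muscle cells and of some pericytes. It had 0 reads in all 3 M-EPC and all 3 F-EPC libraries and 19, 29 and 28 reads in the OVX-EPC libraries. Against the floor of 3 reads per library, Des stood at least 8.12-fold lower in F-EPCs and at least 7.78-fold lower in M-EPCs relative to OVX-EPCs. Its adjusted p in limma was 9.2e-05 and 3.4e-05. The reads of Des in OVX-EPCs were themselves few, so its level there is known only roughly.

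Myl9, the regulatory light chain of smooth muscle and non-muscle myosin, was 1 of the 3 members listed in all 3 tables. It had 0 reads in all M-EPC libraries, 5, 2 and 9 reads in F-EPCs, and 26, 28 and 36 reads in OVX-EPCs, so that the 9 libraries fell into 3 separate groups. It was at least 9.23-fold lower in M-EPCs relative to OVX-EPCs (adjusted p = 2.5e-05). For F-EPCs against OVX-EPCs its log2 fold change was -2.39 ± 0.45 (SE, adjusted p = 0.0035). For M-EPCs against F-EPCs it was at least 1.70-fold lower (adjusted p = 0.0028).

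**Figure D3:**
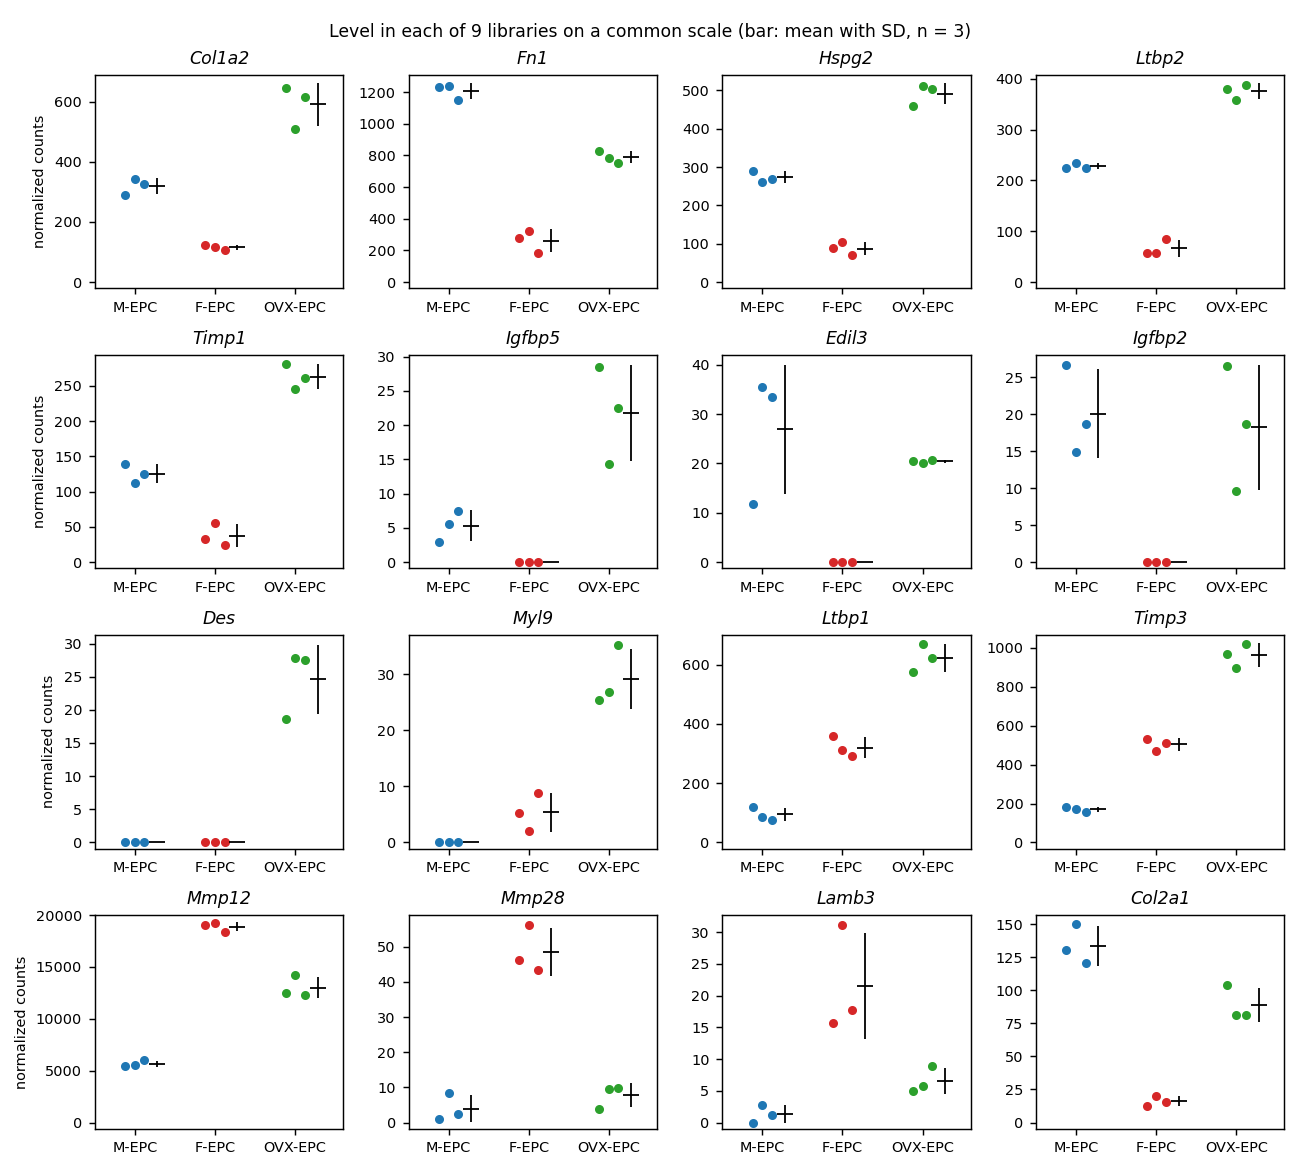
Normalized counts on the common scale (vertical) of 16 members in each of the 9 libraries (points, 3 per group), with the mean and SD of each group as a bar beside them. Des lies at 0 in the M-EPC and F-EPC libraries and at a mean of 24.6 normalized counts in OVX-EPCs, and Mmp12, Mmp28 and Lamb3 are highest in F-EPCs.

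Both listed IGF-binding proteins had no read in F-EPCs. These secreted proteins hold insulin-like growth factors away from their receptor, and Igfbp5 is also known to bind matrix. Igfbp5 had 3, 6 and 6 reads in M-EPCs, 0 in each F-EPC library and 29, 15 and 23 in OVX-EPCs. It stood at least 7.18-fold lower in F-EPCs relative to OVX-EPCs (adjusted p = 1.1e-04) and at least 1.76-fold lower than in M-EPCs (adjusted p = 5.2e-04). For M-EPCs against OVX-EPCs its log2 fold change was -1.86 ± 0.37 (adjusted p = 0.0039). Its neighbour Igfbp2 had 27, 16 and 15 reads in M-EPCs, 0 in each F-EPC library and 27, 10 and 19 in OVX-EPCs. Igfbp2 stood at least 6.61-fold higher in M-EPCs and at least 6.01-fold higher in OVX-EPCs than in F-EPCs, and the M-EPC and OVX-EPC libraries overlapped.

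Edil3, an integrin-binding matrix protein of embryonic endothelium, also had no read in F-EPCs. It had 12, 38 and 27 reads in M-EPCs, 0 in each F-EPC library and 21 in each OVX-EPC library. Edil3 stood at least 8.87-fold higher in M-EPCs (adjusted p = 2.6e-04) and at least 6.74-fold higher in OVX-EPCs (adjusted p = 2.3e-05) than in F-EPCs, and the M-EPC libraries spread around those of OVX-EPCs. Adamts8 was the other member with 0 reads in all F-EPC libraries, with 2, 6 and 7 reads in M-EPCs, where it stood at least 1.78-fold higher (adjusted p = 0.0028). Of the 47 members with values in F-EPCs, 5 were at 0 in all 3 libraries, of the 37 in M-EPCs 2 were, and of the 44 in OVX-EPCs 0 were.

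Of 11 fibrillar collagen genes, 6 were listed, and every one of the 6 was called lower in F-EPCs relative to OVX-EPCs, as was 67.3% of that table. DESeq2 kept the calls of Col1a2 and Col2a1 but not those of Col1a1, Col5a2, Col11a1 and Col5a3. Col1a2, a chain of type I collagen, had 293, 366 and 262 reads in M-EPCs, 118, 116 and 109 in F-EPCs and 659, 532 and 629 in OVX-EPCs. The F-EPC libraries were the lowest and the OVX-EPC libraries the highest with no overlap. The log2 fold change was -2.34 ± 0.14 between F-EPCs and OVX-EPCs (adjusted p = 1.3e-04) and 1.45 ± 0.11 between M-EPCs and F-EPCs (adjusted p = 1.6e-04). Col2a1, the collagen of cartilage, had 132, 161 and 97 reads in M-EPCs, 12, 20 and 16 in F-EPCs and 106, 85 and 83 in OVX-EPCs. Its log2 fold change was 2.99 ± 0.19 between M-EPCs and F-EPCs (adjusted p = 9.7e-05) and -2.41 ± 0.21 between F-EPCs and OVX-EPCs (adjusted p = 2.9e-04). On the common scale Col2a1 was highest in M-EPCs, as was Fn1, and these are the only 2 of the 32 members in which M-EPCs stood above OVX-EPCs with no overlap.

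Col1a1, the partner chain of Col1a2, was less even. It had 20, 45 and 17 reads in M-EPCs, 28, 4 and 5 in F-EPCs and 91, 40 and 79 in OVX-EPCs. A single F-EPC library stood high among the 3, and the M-EPC and OVX-EPC libraries overlapped. The log2 fold change was -2.76 ± 0.78 between F-EPCs and OVX-EPCs (adjusted p = 0.015) and -1.27 ± 0.43 between M-EPCs and OVX-EPCs (adjusted p = 0.028). The second of these was not called without M-EPC replicate 1 or 3 or OVX-EPC replicate 1 or 3, with adjusted p between 0.081 and 0.088. Col5a2, which joins type I fibrils, had 4, 8 and 5 reads in M-EPCs against 62, 46 and 40 in OVX-EPCs, for which the log2 fold change was -2.84 ± 0.27 (adjusted p = 2.9e-04). Its 3 F-EPC libraries ran from 6 to 33 reads, and its call against OVX-EPCs was lost without F-EPC replicate 2 or 3 or any OVX-EPC library (adjusted p between 0.066 and 0.11). Col11a1 had 0, 0 and 1 reads in F-EPCs and 12, 12 and 3 in OVX-EPCs, a ratio of 26.0 with an exact 95% interval from 4.28 to 1064 that covers counting error only. Col5a3 had 1, 2 and 1 against 15, 7 and 14 reads.

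Among the other collagens 6 of 26 were listed. Col16a1, which lies on the surface of fibrils, had 30, 41 and 15 reads in M-EPCs, 8, 2 and 2 in F-EPCs and 31, 41 and 45 in OVX-EPCs. Its F-EPC libraries were all below the others, with a log2 fold change of 2.70 ± 0.54 for M-EPCs against F-EPCs (adjusted p = 0.0046) and -3.14 ± 0.49 for F-EPCs against OVX-EPCs (adjusted p = 0.0018). Col8a1, a short-chain collagen of vessel walls, had 11, 9 and 29 reads in F-EPCs and 95, 92 and 75 in OVX-EPCs (log2 fold change -2.47 ± 0.42, adjusted p = 0.0025). With 39, 38 and 47 reads in M-EPCs it was higher there than in F-EPCs (adjusted p = 0.021), a call lost without M-EPC replicate 3, F-EPC replicate 1 or F-EPC replicate 2 (adjusted p of 0.063, 0.065 and 0.057). Col20a1 was called higher in M-EPCs relative to F-EPCs with the authors' factors but not with RLE (0.91) or DESeq2 (0.91). Col6a1 had 12, 10 and 10 reads in M-EPCs and 1, 2 and 2 in F-EPCs, a ratio of 6.57 with an exact 95% interval from 2.54 to 21.6. Col12a1 had 0, 0 and 2 reads in F-EPCs and 4, 15 and 21 in OVX-EPCs, a ratio of 19.3 (4.99 to 164). Its call was lost with DESeq2 (adjusted p = 0.055). Col23a1, a membrane-bound collagen, went the other way. It had 6, 16 and 8 reads in M-EPCs, 38, 22 and 44 in F-EPCs and 23, 48 and 34 in OVX-EPCs, so that M-EPCs were lower by log2 fold changes of -1.70 ± 0.40 against F-EPCs (adjusted p = 0.0084) and -1.66 ± 0.39 against OVX-EPCs (adjusted p = 0.0076). F-EPCs and OVX-EPCs overlapped.

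The basement membrane group split. Of 22 such genes 5 were listed. Nid1, the nidogen that links laminin to type IV collagen, had 57, 39 and 70 reads in M-EPCs, 3, 9 and 7 in F-EPCs and 46, 71 and 54 in OVX-EPCs. M-EPCs and OVX-EPCs overlapped far above F-EPCs, with a log2 fold change of 3.05 ± 0.46 for M-EPCs (adjusted p = 0.0015) and of -3.01 ± 0.37 for F-EPCs against OVX-EPCs (adjusted p = 7.0e-04). Hspg2, the heparan sulfate proteoglycan perlecan, had 294, 279 and 217 reads in M-EPCs, 84, 103 and 72 in F-EPCs and 470, 534 and 513 in OVX-EPCs. Its 3 groups were separate, and the log2 fold change was 1.65 ± 0.16 between M-EPCs and F-EPCs (adjusted p = 3.2e-04) and -2.49 ± 0.17 between F-EPCs and OVX-EPCs (adjusted p = 1.8e-04). Lamb1, the laminin beta chain of most vessels, was also lower in F-EPCs relative to OVX-EPCs (log2 fold change -1.58 ± 0.37, adjusted p = 0.0082), with 32, 13 and 32 against 83, 75 and 70 reads. Its call against M-EPCs, which had 42, 66 and 76 reads, was lost without M-EPC replicate 2 or 3 or F-EPC replicate 2 (adjusted p of 0.079, 0.094 and 0.067).

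Lamb3 and Col15a1 ran against these. Lamb3, a chain of the laminin of epithelial basement membrane, had 0, 3 and 1 reads in M-EPCs, 15, 31 and 18 in F-EPCs and 5, 6 and 9 in OVX-EPCs. F-EPCs were the highest group with no overlap, 15.6 times M-EPCs by pooled reads (exact 95% interval 5.80 to 59.0) and with a log2 fold change of 1.56 ± 0.33 against OVX-EPCs (adjusted p = 0.0051). Col15a1, a collagen beneath endothelium, had 13, 22 and 8 reads in M-EPCs, 30, 34 and 40 in F-EPCs and 70, 52 and 50 in OVX-EPCs. Its log2 fold change was -1.92 ± 0.30 between M-EPCs and OVX-EPCs (adjusted p = 0.0014).

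Elastic fibre and crosslinking genes were listed for 5 of 29 names. Ltbp1 and Ltbp2 encode proteins of the same family, of which Ltbp1 holds latent TGF-beta in the matrix and Ltbp2 does not. They differed in their lowest group. Ltbp1 had 122, 93 and 62 reads in M-EPCs, 342, 309 and 295 in F-EPCs and 587, 700 and 636 in OVX-EPCs, whereas Ltbp2 had 228, 252 and 181 in M-EPCs, 54, 57 and 86 in F-EPCs and 388, 374 and 396 in OVX-EPCs. With the authors' factors both had 3 separate groups with OVX-EPCs highest. For Ltbp1 the log2 ratio of F-EPCs over OVX-EPCs, -0.96, was smaller in size than the shift that recomputed factors put on that comparison. Between M-EPCs and F-EPCs the log2 fold change of Ltbp1 was -1.76 ± 0.20 (adjusted p = 5.3e-04) and that of Ltbp2 was 1.80 ± 0.18 (adjusted p = 3.5e-04). Against OVX-EPCs, Ltbp1 was lower in M-EPCs by -2.73 ± 0.21 (adjusted p = 1.4e-04) and Ltbp2 was lower in F-EPCs by -2.51 ± 0.19 (adjusted p = 2.3e-04) on the log2 scale.

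Lox, the lysyl oxidase that crosslinks collagen and elastin, had 215, 228 and 156 reads in M-EPCs and 492, 567 and 484 in OVX-EPCs, for which the log2 fold change was -1.27 ± 0.13 (adjusted p = 3.6e-04). Fbln2, a fibulin, had 10, 11 and 7 reads in F-EPCs and 27, 32 and 42 in OVX-EPCs (log2 fold change -1.69 ± 0.25, adjusted p = 0.0014). Mfap3l, which the rule takes in by its name, had 167, 167 and 180 reads in M-EPCs, 377, 360 and 361 in F-EPCs and 415, 552 and 479 in OVX-EPCs. Its log2 fold change for M-EPCs against F-EPCs was -1.04 ± 0.17 (adjusted p = 0.0019), which fell short of 1 in size without M-EPC replicate 1 (-0.99), M-EPC replicate 2 (-0.94) or F-EPC replicate 1. Against OVX-EPCs it was -1.37 ± 0.20 (adjusted p = 0.0011).

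Adhesive and matricellular genes were the group with the largest listed share, 9 of 13. Fn1, fibronectin, had 1246, 1329 and 927 reads in M-EPCs, 263, 324 and 185 in F-EPCs and 843, 820 and 765 in OVX-EPCs. Its log2 fold change was 2.24 ± 0.23 between M-EPCs and F-EPCs (adjusted p = 3.7e-04) and -1.63 ± 0.24 between F-EPCs and OVX-EPCs (adjusted p = 0.0013). The small leucine-rich proteoglycans that bind collagen fibrils were lower in F-EPCs relative to OVX-EPCs for Bgn, Dcn and Lum. Bgn, biglycan, had 108, 126 and 86 reads in M-EPCs, 96, 53 and 50 in F-EPCs and 229, 255 and 246 in OVX-EPCs, with a log2 fold change of -1.87 ± 0.29 for F-EPCs (adjusted p = 0.0018) and -1.09 ± 0.13 for M-EPCs (adjusted p = 5.0e-04) against OVX-EPCs. Lum, lumican, had 4, 0 and 0 reads in M-EPCs, 5, 0 and 1 in F-EPCs and 18, 29 and 21 in OVX-EPCs. By pooled reads Lum in OVX-EPCs was 15.9 times that in M-EPCs (exact 95% interval 5.94 to 60.1), and M-EPCs and F-EPCs overlapped near 0. Its log2 fold change for F-EPCs against OVX-EPCs was -3.29 ± 0.68 (adjusted p = 0.0049). Thbs2, thrombospondin 2, had 1, 0 and 0 reads in M-EPCs, 7, 13 and 11 in F-EPCs and 14, 11 and 38 in OVX-EPCs. Sparc and Dcn, listed between F-EPCs and OVX-EPCs alone, were called lower in F-EPCs, and Tnc was called lower in F-EPCs than in both other groups with the authors' factors. With TMM, RLE and DESeq2 Sparc, Dcn and Tnc were not called against OVX-EPCs (Tnc at -0.38, -0.39 and -0.39), and Tnc was not called against M-EPCs with RLE or DESeq2 (0.88 and 0.88). The pooled ratio of Thbs2 to M-EPCs was 30.2 in F-EPCs (5.04 to 1232) and 59.0 in OVX-EPCs (10.2 to 2366).

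Proteinases and their inhibitors were listed for 13 of 49 names. Timp1, the inhibitor of MMPs that many stimulated stromal cells secrete, was listed in all 3 tables. It had 141, 120 and 101 reads in M-EPCs, 31, 56 and 25 in F-EPCs and 287, 257 and 266 in OVX-EPCs, in 3 separate groups. The log2 fold change was -2.85 ± 0.31 between F-EPCs and OVX-EPCs (adjusted p = 4.9e-04) and 1.78 ± 0.32 between M-EPCs and F-EPCs (adjusted p = 0.0029). Relative to OVX-EPCs, M-EPCs had -1.06 ± 0.15 (adjusted p = 9.2e-04), which was -0.98 and not called without M-EPC replicate 2. Timp3, the inhibitor that stays bound to matrix, was lowest in M-EPCs instead. It had 186, 185 and 127 reads in M-EPCs, 510, 468 and 518 in F-EPCs and 990, 937 and 1040 in OVX-EPCs, with a log2 fold change of -2.48 ± 0.13 between M-EPCs and OVX-EPCs (adjusted p = 6.8e-05) and -1.55 ± 0.11 between M-EPCs and F-EPCs (adjusted p = 1.2e-04).

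Mmp28, a secreted MMP, was high in F-EPCs alone. It had 1, 9 and 2 reads in M-EPCs, 44, 56 and 44 in F-EPCs and 4, 10 and 10 in OVX-EPCs, for which the log2 fold change was -3.60 ± 0.57 between M-EPCs and F-EPCs (adjusted p = 0.0019) and 2.58 ± 0.35 between F-EPCs and OVX-EPCs (adjusted p = 9.9e-04). Mmp16, a membrane-bound MMP, had 5, 9 and 2 reads in M-EPCs, 0, 4 and 1 in F-EPCs and 27, 23 and 25 in OVX-EPCs. It was lower in M-EPCs relative to OVX-EPCs by a log2 fold change of -2.12 ± 0.37 (adjusted p = 0.0023), and its pooled reads in OVX-EPCs were 14.4 times those in F-EPCs (exact 95% interval 5.92 to 45.8). Adamtsl1, an ADAMTS-like protein with no proteinase domain, had 6, 14 and 7 reads in M-EPCs, 0, 0 and 1 in F-EPCs and 7, 15 and 14 in OVX-EPCs, so the F-EPC libraries stood apart from the other 2 groups. Its pooled ratio to F-EPCs was 27.7 in M-EPCs (4.57 to 1134) and 34.7 in OVX-EPCs (5.84 to 1406). Mmp27 had 376, 497 and 318 reads in M-EPCs against 1167, 1359 and 1198 in OVX-EPCs (log2 fold change -1.56 ± 0.15, adjusted p = 2.9e-04). Mmp2, Mmp15, Adamts2, Adamts14 and Adamtsl4 were listed between F-EPCs and OVX-EPCs alone and called lower in F-EPCs with the authors' factors. Mmp15 had 0, 0 and 1 reads in F-EPCs and 9, 9 and 6 in OVX-EPCs, a ratio of 23.1 (3.77 to 950), and the log2 fold changes of the others ran from -2.51 in Adamts14 to -1.06 in Adamtsl4. Recomputed size factors ended the calls of Mmp2 (from -1.37 to -0.16 with each method), Adamts2 (from -1.85 to -0.91 with TMM) and Adamtsl4, and DESeq2 also that of Mmp15. Without OVX-EPC replicate 1 the value of Adamtsl4 was -0.93 and not called.

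Levels of different genes were compared per kilobase of annotated exons. Between M-EPCs and F-EPCs the highest members were Thbs1, at 2432 (M-EPCs) and 1165 (F-EPCs) normalized counts per kilobase, and Mmp12, with 752 and 2515. These 2 were named here after their values were seen. Thrombospondin 1 is released by platelets and macrophages, and Mmp12 is the elastase of macrophages. Thbs1 had 15605, 16103 and 12537 reads in M-EPCs and 7182, 7278 and 7309 in F-EPCs, and it was listed in that comparison alone. Mmp12 had between 4823 and 5925 reads in M-EPCs, 18163 and 19131 in F-EPCs, and 12538 and 14846 in OVX-EPCs, so that F-EPCs were the highest group. Col1a2 stood at 24.7 (M-EPCs) and 8.98 (F-EPCs) normalized counts per kilobase.

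Some calls depended on the scaling, over all listed genes as well as in the members. TMM, RLE and DESeq2 assume that most genes do not differ, whereas the listed genes had all passed a screen for difference. These settings therefore cannot tell which factors are right, and a call lost under them is a description only. TMM called 404 of the 811 genes between F-EPCs and OVX-EPCs. DESeq2 called 1044 of the 1317 between M-EPCs and OVX-EPCs and 1672 of the 2093 between M-EPCs and F-EPCs. With size factors recomputed by TMM, 13 of the 33 members lower in F-EPCs relative to OVX-EPCs no longer passed, namely Fn1, Sparc, Bgn, Dcn, Tnc, Col1a1, Col5a2, Lamb1, Myl9, Fbln2, Mmp2, Adamts2 and Adamtsl4, although the direction held for all but Adamtsl4. With DESeq2, 9 of the 18 members lower in M-EPCs relative to OVX-EPCs no longer passed, namely Timp1, Bgn, Lox, Mfap3l, Col1a1, Col23a1, Igfbp5, Mmp12 and Mmp27. For M-EPCs against F-EPCs RLE and DESeq2 each left 26 of 30 members called and 15 of the 19 higher in M-EPCs. The calls lost were those of Thbs1 (from 1.06 to 0.71), Tnc, Col20a1 and Lamb1, and TMM ended that of Mfap3l (-0.96). Des, Edil3, Igfbp2, Igfbp5, Nid1, Hspg2, Col1a2, Ltbp2 and Timp1 remained called between F-EPCs and OVX-EPCs under TMM, RLE and DESeq2.

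Genes that act with the matrix were read from lists of related genes. Nearly every listed gene was called, so a list called in full says nothing by itself, here or for the markers below. Of the whole tables, 67.3% was called lower and 30.8% higher in F-EPCs against OVX-EPCs. The shares were 58.0% and 40.8% in M-EPCs against OVX-EPCs, and 49.3% and 48.4% in M-EPCs against F-EPCs. Of 23 genes of collagen synthesis and processing, 7 were listed. For F-EPCs against OVX-EPCs 5 were listed, all lower in F-EPCs, and 4 were called. Serpinh1, the chaperone of procollagen, had 34, 40 and 26 reads in F-EPCs and 96, 111 and 140 in OVX-EPCs (log2 fold change -1.71 ± 0.23, adjusted p = 0.0010), and Fkbp10, which helps fold procollagen, had 2, 16 and 8 against 61, 58 and 59 (-2.92 ± 0.62, adjusted p = 0.0053). Pcolce, which helps trim procollagen, was not called because its log2 fold change fell short of 1 in size (adjusted p = 0.016). In M-EPCs against OVX-EPCs 4 of 4 were called lower in M-EPCs (Serpinh1, Fkbp10, P3h2 and Colgalt2), and between M-EPCs and F-EPCs 1 of 1 was called higher in M-EPCs, Pcolce, with 69, 99 and 74 against 33, 44 and 25 reads.

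Of 30 matrix receptors, 13 were listed. Ddr2, the receptor tyrosine kinase for fibrillar collagen on stromal cells, had 103, 117 and 65 reads in M-EPCs, 33, 11 and 14 in F-EPCs and 141, 87 and 153 in OVX-EPCs. It was called higher in M-EPCs relative to F-EPCs (2.39 ± 0.44, adjusted p = 0.0032) and lower in F-EPCs relative to OVX-EPCs (-2.71 ± 0.47, adjusted p = 0.0027). The platelet receptors Itga2b, Itgb3 and Gp6 went another way. Itga2b, the integrin that binds fibrinogen, had 47, 69 and 45 reads in M-EPCs, 1411, 1515 and 1754 in F-EPCs and 2747, 2515 and 2829 in OVX-EPCs. In all, between M-EPCs and F-EPCs 2 receptors were called higher in M-EPCs and 6 of 9 lower, between M-EPCs and OVX-EPCs 6 of 6 were called lower, and between F-EPCs and OVX-EPCs 4 of 5 were called lower in F-EPCs and 1, Itga8, higher.

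Of 38 genes of TGF-beta signalling and its targets, 10 were listed. Grem1, an inhibitor of bone morphogenetic proteins, had 309, 303 and 278 reads in M-EPCs, 42, 51 and 35 in F-EPCs and 160, 194 and 213 in OVX-EPCs, the order that Fn1 and Col2a1 had. Id3, a target of bone morphogenetic proteins, was higher in F-EPCs, with 23, 36 and 17 reads in M-EPCs, 108, 115 and 133 in F-EPCs and 36, 31 and 32 in OVX-EPCs (log2 fold change 1.87 ± 0.13 for F-EPCs against OVX-EPCs, adjusted p = 1.8e-04). Between M-EPCs and F-EPCs 2 of 7 were called higher in M-EPCs (Acvrl1 and Grem1) and 5 lower, between M-EPCs and OVX-EPCs 5 of 5 were called lower, and between F-EPCs and OVX-EPCs 4 of 5 were called lower in F-EPCs. Of 30 regulators and partners of contractile genes, 8 were listed. Mylk, the kinase of the myosin light chain that Myl9 encodes, had 12, 12 and 5 reads in M-EPCs, 52, 93 and 108 in F-EPCs and 150, 140 and 140 in OVX-EPCs, the order of Myl9 itself. All 7 partners listed between M-EPCs and OVX-EPCs were called lower in M-EPCs, as was 58.0% of that table. Against F-EPCs 6 of 7 were called lower in M-EPCs and 1, Cnn3, higher, and between F-EPCs and OVX-EPCs 1 of 1 was called lower in F-EPCs, Cald1.

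Markers of the cell types that such a culture could hold differed between the groups in several directions. Of 20 mesenchymal stromal cell markers, 8 were listed, and all 8 were called lower in F-EPCs relative to OVX-EPCs, as was 67.3% of that table. Pdgfra, a receptor of stromal progenitors, had 40, 15 and 15 reads in M-EPCs, 4, 4 and 2 in F-EPCs and 46, 49 and 53 in OVX-EPCs. Prrx1, a transcription factor of mesenchyme, had 72, 41 and 48 reads, 22, 7 and 38 reads and 134, 152 and 143 reads in the same order. Between M-EPCs and F-EPCs 5 were listed, all higher in M-EPCs, and 4 were called. Against OVX-EPCs 2 of 2 were called lower in M-EPCs (Prrx1 and Thy1). Summed over the 6 markers with 9 values, of which Vcam1 made up most, M-EPC libraries held between 2761 and 2928 normalized counts, F-EPCs between 782 and 804 and OVX-EPCs between 4987 and 5113. The part of such cells in the members' values was not tested.

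**Figure D4:**
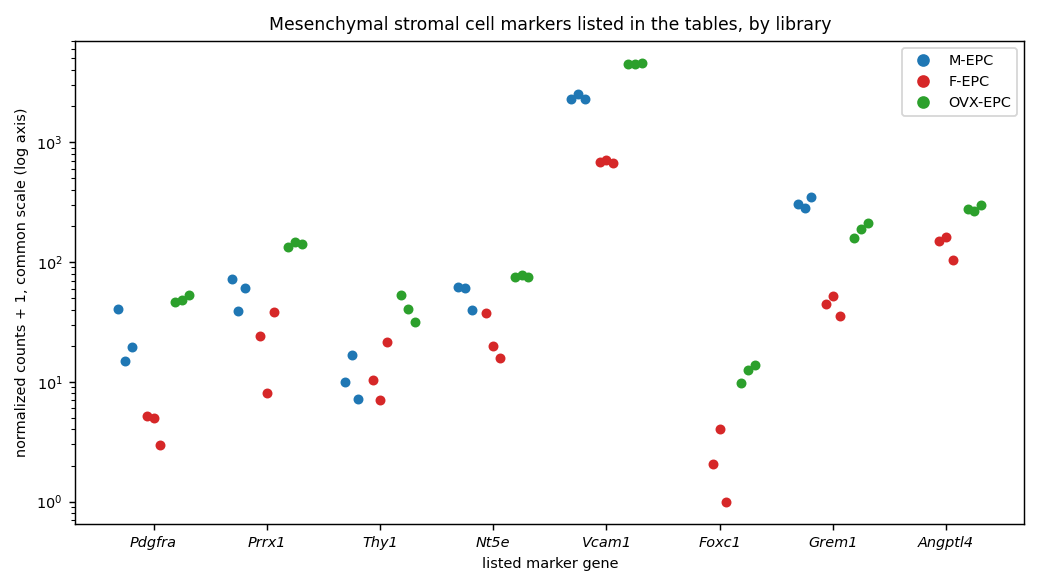
Normalized counts plus 1 on the common scale (vertical, log axis) of the 8 listed mesenchymal stromal cell markers in each library (points, 3 per group). OVX-EPC libraries lie above F-EPC libraries for all 8, and M-EPC libraries lie above both for Grem1. Foxc1 and Angptl4 have no M-EPC values because they are listed only between F-EPCs and OVX-EPCs.

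Of 14 osteoblast and chondrocyte markers, 5 were listed. Sp7, Ibsp and Dmp1, markers of the bone-forming lineage, had 0 reads in all F-EPC libraries, and Sp7 had 16, 8 and 20 reads in OVX-EPCs. For F-EPCs against OVX-EPCs 4 of 5 were called lower in F-EPCs, for M-EPCs against OVX-EPCs 4 of 4 lower in M-EPCs, and between M-EPCs and F-EPCs Dmp1 was called higher and Spp1 lower. Spp1, osteopontin, which macrophages also make, was highest in F-EPCs and made up nearly all of the summed level, 5380 to 5662 (M-EPCs), 101560 to 107912 (F-EPCs) and 33877 to 34197 (OVX-EPCs) normalized counts. Of 14 pericyte and smooth muscle markers outside the member rule, 3 were listed (Cspg4, Cald1 and Synpo2). Cspg4 and Cald1 were called lower in F-EPCs relative to OVX-EPCs, and Cald1 and Synpo2 lower in M-EPCs relative to OVX-EPCs. Of those listed between M-EPCs and F-EPCs, Cspg4 was called higher and Synpo2 lower in M-EPCs. Their summed level was 109 to 122 (M-EPCs), 89.4 to 114 (F-EPCs) and 286 to 323 (OVX-EPCs) normalized counts.

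Megakaryocyte and platelet markers were listed for 18 of 19. All 18 were called lower in M-EPCs relative to F-EPCs (49.3% of that table) and relative to OVX-EPCs (58.0%). Between F-EPCs and OVX-EPCs 3 of 3 were called lower in F-EPCs (67.3%). The summed level of the 18 was 1706 to 1893 (M-EPCs), 13807 to 14112 (F-EPCs) and 18958 to 19649 (OVX-EPCs) normalized counts. With the authors' factors Ltbp1, Timp3, Myl9 and Mylk had that order too, as did the endothelial sum and Fabp4 below. With no overlap, 14.6% of all 1288 genes with 9 values had it. Among the 18 markers Pf4 alone was higher in F-EPCs (3441 to 3799 reads) than in OVX-EPCs (3005 to 3369 reads). Only Gp9, Tubb1 and Clec1b were listed between these groups, and for the other markers their order rests on the authors' factors. Of 24 endothelial markers 7 were listed. Kdr, Tie1, Vwf and Esam were called lower in M-EPCs than in both other groups, whereas Pecam1 and Stab2 were called higher in M-EPCs relative to F-EPCs, and 3 of 3 were called lower in F-EPCs relative to OVX-EPCs. Their summed level was 1674 to 1704 (M-EPCs), 3351 to 3387 (F-EPCs) and 4834 to 5195 (OVX-EPCs) normalized counts. Of 20 macrophage and monocyte markers 6 were listed, with 2 called higher and 3 lower in M-EPCs relative to F-EPCs, 1 higher and 2 lower in M-EPCs relative to OVX-EPCs, and 1 lower in F-EPCs relative to OVX-EPCs. The sum of the 3 with 9 values was 1881 to 2297 (M-EPCs), 811 to 1004 (F-EPCs) and 780 to 858 (OVX-EPCs) normalized counts, of which Marco made up 1750 to 2217 in M-EPCs, while Ccr2 and Ly6c2 were lowest in M-EPCs. Of 18 neutrophil markers 12 were listed, with 11 of 11 called lower in M-EPCs relative to F-EPCs, 6 lower and 1 higher in M-EPCs relative to OVX-EPCs, and 7 of 8 higher in F-EPCs relative to OVX-EPCs. Their sum was 137 to 200 (M-EPCs), 951 to 1043 (F-EPCs) and 318 to 407 (OVX-EPCs) normalized counts, and Cxcr2 and Itgb2l had 0 reads in M-EPCs. Of 12 adipocyte markers 1 was listed, Fabp4, called lower in M-EPCs than in both other groups, at 1159 to 1385 (M-EPCs), 3671 to 4653 (F-EPCs) and 5373 to 5717 (OVX-EPCs) normalized counts. The part of these cells in the members' values was not tested.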

How the data were processed

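RNA-seq was analysed in 3 libraries per group, grouped by the sample labels. The authors prepared libraries with a directional kit, mapped with HISAT2 (mm10 in the submitters' processing notes), quantified with Cuffquant and Cuffnorm, compared groups with DEseq, and deposited 1 table per comparison with the genes past a screen on fold change and FDR. The deposited signal is a normalized count (reads divided by a size factor per library and comparison). Whole reads were recovered within a tolerance of 0.01. The authors' own log2 fold changes, p-values and directions are also in the tables and were not used.

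Limma 3.58.1 in R 4.3.3 was fitted to log2(normalized count + 1) over all listed genes of each table, keeping genes whose larger group mean reached 1, with no covariate and Benjamini-Hochberg adjustment. On data simulated from each comparison it recovered 185 of 200 genes changed 4-fold among 2093 (M-EPCs and F-EPCs), 196 among 1317 (M-EPCs and OVX-EPCs) and 198 among 811 (F-EPCs and OVX-EPCs). It made 10, 4 and 2 false calls. The other genes were simulated unchanged and with a fixed dispersion, whereas nearly all listed genes are called in the data. The simulation therefore does not describe recovery in these screened tables. Pooled ratios have exact binomial intervals. Des, Igfbp5, Edil3, members listed in all tables, and the 3 members with the largest absolute log2 fold change of each role and table were named with statistics, and other members given a value, among them Adamtsl4, Thbs1, Mmp12 and Lamb1, and genes of the lists were added after their values were seen. Members and lists were chosen with earlier results of these data known. Alternatives used edgeR 4.0.16 and DESeq2 1.42.0 on recovered reads, other filters, thresholds and pseudocounts, a replicate block, and each library left out. Positions are from GENCODE on GRCm38 and promoters from RefSeq on GRCm38.p6.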

Additional observations from a re-analysis of the deposited data

How the results depend on the processing

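In the comparisons that listed them, members kept their directions under all alternatives but those that recomputed size factors. Those turned Adamtsl4 between F-EPCs and OVX-EPCs from -1.06 to 0.0566 (TMM), 0.0463 (RLE) and 0.0462 (DESeq2). Over members and settings 1298 calls stayed, 132 were lost and 3 reversed. Asking for a log2 fold change of 2 or more in size, calls fell to 14 between M-EPCs and F-EPCs (10 higher and 4 lower in M-EPCs), 8 lower in M-EPCs relative to OVX-EPCs, and 23 in the F-EPC and OVX-EPC comparison (1 higher in F-EPCs). Over all listed genes that rule called 738 of 2093, 574 of 1317 and 300 of 811. For M-EPCs against F-EPCs TMM left 29 and RLE and DESeq2 each 26 members called. Of all 2093 listed genes, TMM left 1968 called, RLE 1711 and DESeq2 1672. For M-EPCs against OVX-EPCs RLE left 11 and DESeq2 9 members called, all lower in M-EPCs. Of all 1317 listed genes, RLE left 1082 called and DESeq2 1044. For F-EPCs against OVX-EPCs TMM and RLE each left 22 called (20 lower) and DESeq2 18 (16 lower). Of all 811 listed genes, TMM left 404 called, RLE 405 and DESeq2 380, with between 63.0% and 67.1% of these higher in F-EPCs. These factors came from the screened genes alone, where the assumption of mostly unchanged genes is not met, and the cause was not tested. The members' median for M-EPCs against F-EPCs was 1.41 with a pseudocount of 0.1, 1.23 with a mean of at least 20, 1.36 with edgeR on the authors' size factors, 1.44 with TMM, 1.02 with RLE and 1.04 with DESeq2. For M-EPCs against OVX-EPCs it was -2.02 with a pseudocount of 0.1, -1.97 with edgeR on the authors' size factors, -1.78 with TMM, -1.35 with RLE and -1.36 with DESeq2. For F-EPCs against OVX-EPCs it was -2.55 with a pseudocount of 0.1, -2.39 with a mean of at least 20, -1.32 with TMM, -1.33 with RLE and -1.34 with DESeq2. Leaving out each library in turn gave medians between 1.17 and 1.55, between -2.07 and -1.71, and between -2.48 and -2.34, and from 28 to 30, 17 to 18 and 33 to 35 calls. Over all listed genes it gave from 1864 to 1913, 1208 to 1235 and 724 to 755 calls. Same-numbered libraries did not deviate together (correlations of at most 0.032), so the numbers were not taken to pair them. A replicate block left 30, 17 and 35 members called (2003, 1288 and 781 of all listed genes), and the pairing check gives no ground for it. Genes outside the tables were not used, so dispersion and scaling could not be judged over all expressed genes, and members with under 10 reads per library rest on few counts.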
